A study of Homo sapiens with 12 samples.

Results

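The comparison described here set B4-4 against Vector in detached cells carrying the treatment label NA. It used 4 of the 12 RNA-seq libraries of the series, B4-4 NA 1 and 2 and Vector NA 1 and 2, chosen by their sample titles. The other 8 libraries (B4-4 EDTA, Vector EDTA, Addback NA and Addback EDTA, with 2 libraries each) entered the model to estimate the spread. All cells were derivatives of MCF10-A, a line of human breast epithelium that is not tumorigenic and that expresses basal keratins. Cells of every group, which had been passaged with 5% horse serum, were trypsinized and kept without serum for 3 hours over poly-HEMA, a polymer coating that blocks attachment. The study concerned the role of integrin α6β4 in such detached cells. B4-4 is the derivative with low ITGB4 and Vector its control. How B4-4 and Addback were made, whether a derivative is 1 clone, and what NA stands for are not stated in the labels. The libraries of a group are not stated to come from separate cultures, so the p-values measure only the spread between these libraries, which may be technical.

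Integrin α6β4 is a receptor for laminins, the main adhesive proteins of basement membranes. The β4 chain, encoded by ITGB4, pairs with the α6 chain and, through its long cytoplasmic tail, binds plectin and the keratin filaments at hemidesmosomes, the junctions that fix basal epithelial cells to the matrix. In mammary epithelium it is a basal-cell protein. The receptor also signals with growth factor receptors, and loss of matrix contact deprives epithelial cells of survival and nutrient signals.

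The 4 libraries held 17166964 and 15685376 counts in B4-4 NA and 17377320 and 18915827 counts in Vector NA. The B4-4 NA pair was the widest of the 6 pairs and the Vector NA pair the closest, with a biological coefficient of variation (spread between libraries beyond counting error) of 24.2% against 3.00%. The model shares its estimate of the spread among all 6 groups. The p-values can therefore understate the spread of the B4-4 NA pair. Among genes averaging 5 or more CPM (gene counts scaled to a common library total) in the pair, 370 of 10584 lay at least 2-fold apart between the 2 B4-4 NA libraries, against 5 of 10603 between the Vector NA libraries. Over log2 CPM, B4-4 NA 1 correlated with B4-4 NA 2 at 0.973 and with Vector NA 1 and 2 at 0.978 and 0.978, so its nearest neighbours were Vector libraries. The library names fall into a higher-numbered and a lower-numbered run. B4-4 NA 2 lies in the lower run, and the other 3 libraries in the higher run. In the other groups too, the pairs with names in different runs or lanes were the wider ones. The main genes are therefore given for each library, and others by their log2 fold change alone.

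ITGB4 (ENSG00000132470, chr17:75721328-75757818, plus strand, GRCh38) is the gene that distinguishes the derivatives, and its level was low in both B4-4 libraries. It had 182 and 395 CPM in the B4-4 NA libraries, against 1775 and 1780.1 CPM in the Vector NA libraries. Both B4-4 values were far below both Vector values, with B4-4 NA 2 the higher of the pair. ITGB4 averaged 289 ± 151 CPM in B4-4 NA and 1777 ± 3.95 CPM in Vector NA (SD, n = 2 each), a log2 fold change of -2.62 (SE 0.30, adjusted p = 0.00334). Adjusted p-values come from the quasi-likelihood test of edgeR, corrected over 15749 genes by the method of Benjamini and Hochberg, and a gene is called changed when its value is under 0.05. The change in ITGB4 was -3.29 without B4-4 NA 2 and -2.17 without B4-4 NA 1, and with the compared groups fitted alone its adjusted p was 0.138.

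Over all genes, 1128 of 15749 were called (7.16%), 532 higher (3.38%) and 596 lower (3.78%) in B4-4 NA than in Vector NA. Of these, 299 (1.90%) also differed at least 2-fold. Both B4-4 libraries lay above both Vector libraries for 27.3% of genes and below both for 26.8%. The number depended on which library was left out: 81 genes were called without Vector NA 1 and 84 without Vector NA 2, against 3319 without B4-4 NA 1 and 1496 without B4-4 NA 2. With the run of the library names as a term, 1001 genes were called, 770 of them among the 1128. With the 4 libraries fitted alone 6 genes were called, 2 higher and 4 lower. The count was 643 and 648 without a B4-4 EDTA library and 664 and 665 without an Addback NA library. Calls that held whichever 1 of the 12 libraries was left out numbered 69 (0.438%), of which 27 were higher and 42 lower, and these are the firmest results below.

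**Figure D1:**
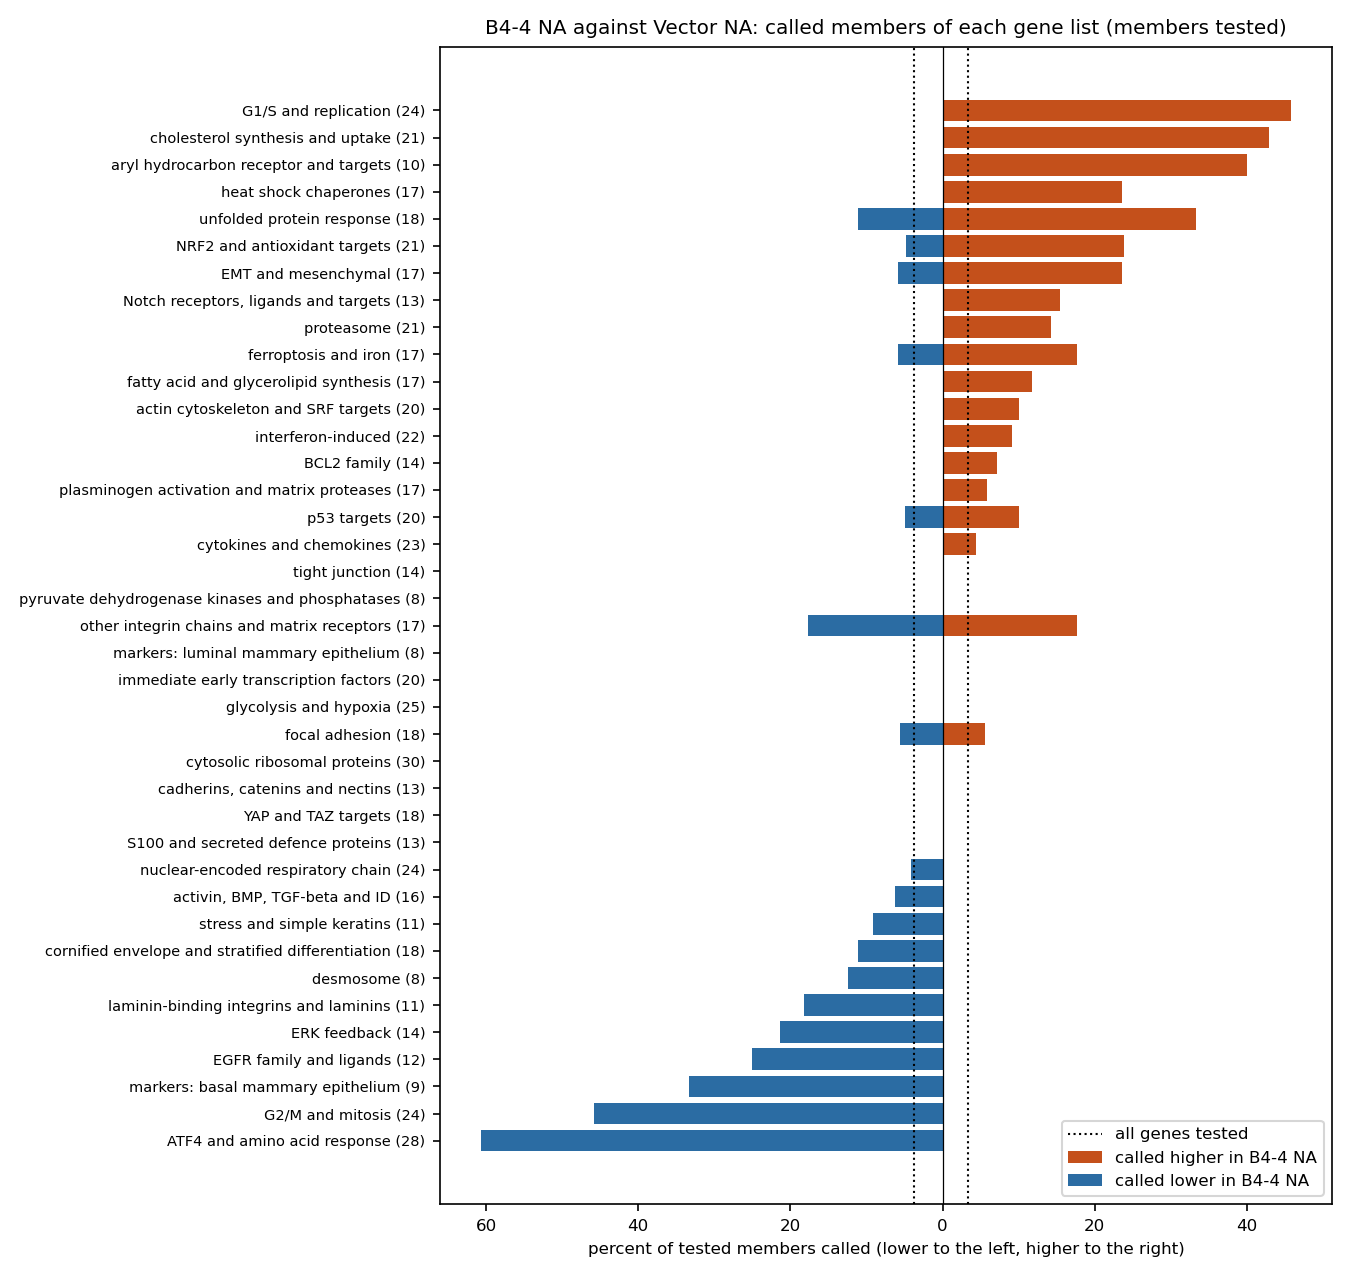
Percent of the tested members of 39 gene lists called higher (right, orange) or lower (left, blue) in B4-4 NA than in Vector NA, with the number tested in brackets and, as dotted lines, the percentages over all genes tested. The ATF4 and G2/M lists reach farthest to the left (17 of 28 and 11 of 24 members), and the G1/S and cholesterol lists farthest to the right (11 of 24 and 9 of 21).

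The level in the remaining libraries shows which side of the comparison was unusual. Of the 596 genes lower in B4-4 NA, the Vector NA pair lay above all other 10 libraries for 379 and the B4-4 NA pair lay below all others for 34. Of the 532 genes higher in B4-4 NA, the Vector NA pair lay below all others for 264 and the B4-4 NA pair above all others for 26. Over all 15749 genes, the Vector NA pair stood above the rest for 8.07% and below for 6.29%, and the B4-4 NA pair above for 0.933% and below for 1.13%. A close pair can stand outside a range more easily than a wide one, and the part of that in these counts was not tested.

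The partners of ITGB4 did not move together. ITGA6, the α6 chain, had 672 and 905 CPM in B4-4 NA, against 839 and 835 CPM in Vector NA, a log2 fold change of -0.08 (adjusted p = 0.732). The B4-4 libraries lay on either side of Vector, and without B4-4 NA 1 the sign turned (0.11, adjusted p = 0.523). Of the 11 laminin-binding integrin chains and laminins, 2 fell and none rose, ITGB4 and LAMB1. LAMB1, a laminin β chain, had 481 and 486 CPM in B4-4 NA, against 718 and 725 CPM in Vector NA, a log2 fold change of -0.58 (SE 0.08, adjusted p = 0.00251). LAMB3, a chain of laminin-332, the ligand made by basal epithelium, split the B4-4 pair, with 539 and 1295 CPM in B4-4 NA and 879.8 and 880.2 CPM in Vector NA (adjusted p = 0.934), and is named here after its values were seen. With either Vector NA library left out in turn, the call of LAMB1 was lost (adjusted p up to 0.0550) and that of ITGB4 was kept.

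Among 7 genes of the hemidesmosome plaque and its anchoring collagens, 4 fell and none rose, with a median log2 fold change of -0.34, against 0.02 over all genes tested. PLEC, the plectin that links β4 to keratins, had 991 and 793 CPM in B4-4 NA, against 1317 and 1315 CPM in Vector NA (-0.56 on the log2 scale, adjusted p = 0.0111). COL17A1, the transmembrane collagen of hemidesmosomes, had 596 and 588 CPM in B4-4 NA, against 746 and 755 CPM in Vector NA (-0.34, adjusted p = 0.0272). KRT14, a basal keratin, had 847 and 1245 CPM in B4-4 NA, against 2379 and 2379 CPM in Vector NA (-1.19, adjusted p = 0.0292). Its pairing partner KRT5 had 5440.5 and 4319 CPM in B4-4 NA, against 6664 and 6782 CPM in Vector NA (-0.46, adjusted p = 0.0348). Both B4-4 libraries were below both Vector libraries for these 4 genes, and none of the 4 calls remained without Vector NA 1 or Vector NA 2 (adjusted p up to 0.241), and 1 to 4 remained without any other library. Reads of KRT14 may be shared with its close relatives KRT16 and KRT17. The list did not behave alike under the EDTA label. The effect of B4-4 over Vector was called lower in NA than in EDTA for 6 of the 7 genes (85.7%, against 27.0% of all). The median difference was -0.93. Of the list's genes called under both labels, 2 had opposite signs and none the same sign.

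Targets of ATF4, with CHAC1 and TRIB3 at their head, gave the highest share of falls among the lists tested. ATF4 is a transcription factor that, when amino acids are short or unfolded proteins accumulate, raises genes for amino acid synthesis, uptake and tRNA charging. Of 28 genes of the ATF4 and amino acid response list, 17 fell and none rose, with a median log2 fold change of -0.75. ATF4 itself had 472 and 671 CPM in B4-4 NA and 653 and 656 CPM in Vector NA (adjusted p = 0.375). Of the 17 calls, 7 held without any 1 library: TRIB3, STC2, SLC7A11, CHAC1, PSAT1, SLC1A5 and ALDH1L2. The other 10 were lost without Vector NA 1 and without Vector NA 2 (adjusted p up to 0.244), and 15 to 17 calls remained without any of the other libraries.

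The bases before the starts of 3 fallen members that carry the motif TGATGNAA, a core of the composite element bound by ATF4 and C/EBP proteins, are shown with its matches on either strand in capitals. They are the 250 bases upstream of the RefSeq start on GRCh38.p14, 5′ to 3′ on the gene's strand, at chr15:40953221-40953470, plus strand, at chr19:46784815-46785064, minus strand, and at chr19:33373863-33374112, plus strand.
CHAC1: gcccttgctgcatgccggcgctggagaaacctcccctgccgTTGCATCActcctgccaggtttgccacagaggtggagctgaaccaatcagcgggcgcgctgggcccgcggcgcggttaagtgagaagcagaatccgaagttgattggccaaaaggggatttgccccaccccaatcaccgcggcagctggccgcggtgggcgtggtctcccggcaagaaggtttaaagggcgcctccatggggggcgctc
SLC1A5: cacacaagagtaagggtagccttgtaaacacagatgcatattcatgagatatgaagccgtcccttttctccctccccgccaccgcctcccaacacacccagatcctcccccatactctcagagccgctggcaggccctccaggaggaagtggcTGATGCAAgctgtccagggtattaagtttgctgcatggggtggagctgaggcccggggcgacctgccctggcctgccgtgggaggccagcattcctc
CEBPG: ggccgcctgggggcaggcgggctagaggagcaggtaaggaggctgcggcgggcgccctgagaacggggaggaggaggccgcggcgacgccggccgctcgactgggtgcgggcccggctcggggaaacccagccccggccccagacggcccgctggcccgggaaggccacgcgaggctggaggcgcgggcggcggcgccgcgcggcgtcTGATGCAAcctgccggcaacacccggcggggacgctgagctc
CHAC1 holds the match 209 bases before the start as TTGCATCA, the other strand's reading, SLC1A5 holds TGATGCAA 97 bases before the start and CEBPG holds TGATGCAA 42 bases before it. Of the list, 23 genes had a promoter sequence and 6 of them (26.1%) held the motif, against 3.89% of 27305 genes. All 6 were among the 14 called genes with a promoter sequence. The list was made of known ATF4 response genes, so these shares describe the list and not the change between B4-4 and Vector. A match describes these letters and shows no binding.

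CHAC1, an enzyme that degrades glutathione, had 0.919 and 0.894 CPM in B4-4 NA, against 11.8 and 13.1 CPM in Vector NA. These levels rest on 16 and 14 counts in B4-4 NA and 210 and 255 in Vector NA. The log2 fold change was -3.77 (SE 0.45, adjusted p = 0.0011). In the other 8 libraries CHAC1 lay between 0.324 and 2.28 CPM, so only Vector NA was high. TRIB3, a pseudokinase that dampens the ATF4 response, had 83.7 and 77.03 CPM in B4-4 NA, against 300.3 and 288 CPM in Vector NA (-1.87, SE 0.11, adjusted p = 7.07e-06), and 71.9 to 116 CPM in the other 8. SLC7A11, the cystine transporter, had 43.98 and 54.0 CPM in B4-4 NA, against 134.3 and 133 CPM in Vector NA (-1.45, SE 0.16, adjusted p = 0.000735). STC2, a secreted glycoprotein, had 67.2 and 47.8 CPM in B4-4 NA, against 143 and 142 CPM in Vector NA (-1.31, SE 0.14, adjusted p = 0.000409). The groups did not overlap for any of these 4 genes. Over the list, the Vector NA pair stood above all other 10 libraries for 15 of 28 genes. DDIT3, which encodes the stress factor CHOP, stayed uncalled, with 17.5 and 4.79 CPM in B4-4 NA and 8.80 and 9.87 CPM in Vector NA (adjusted p = 0.8).

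**Figure D2:**
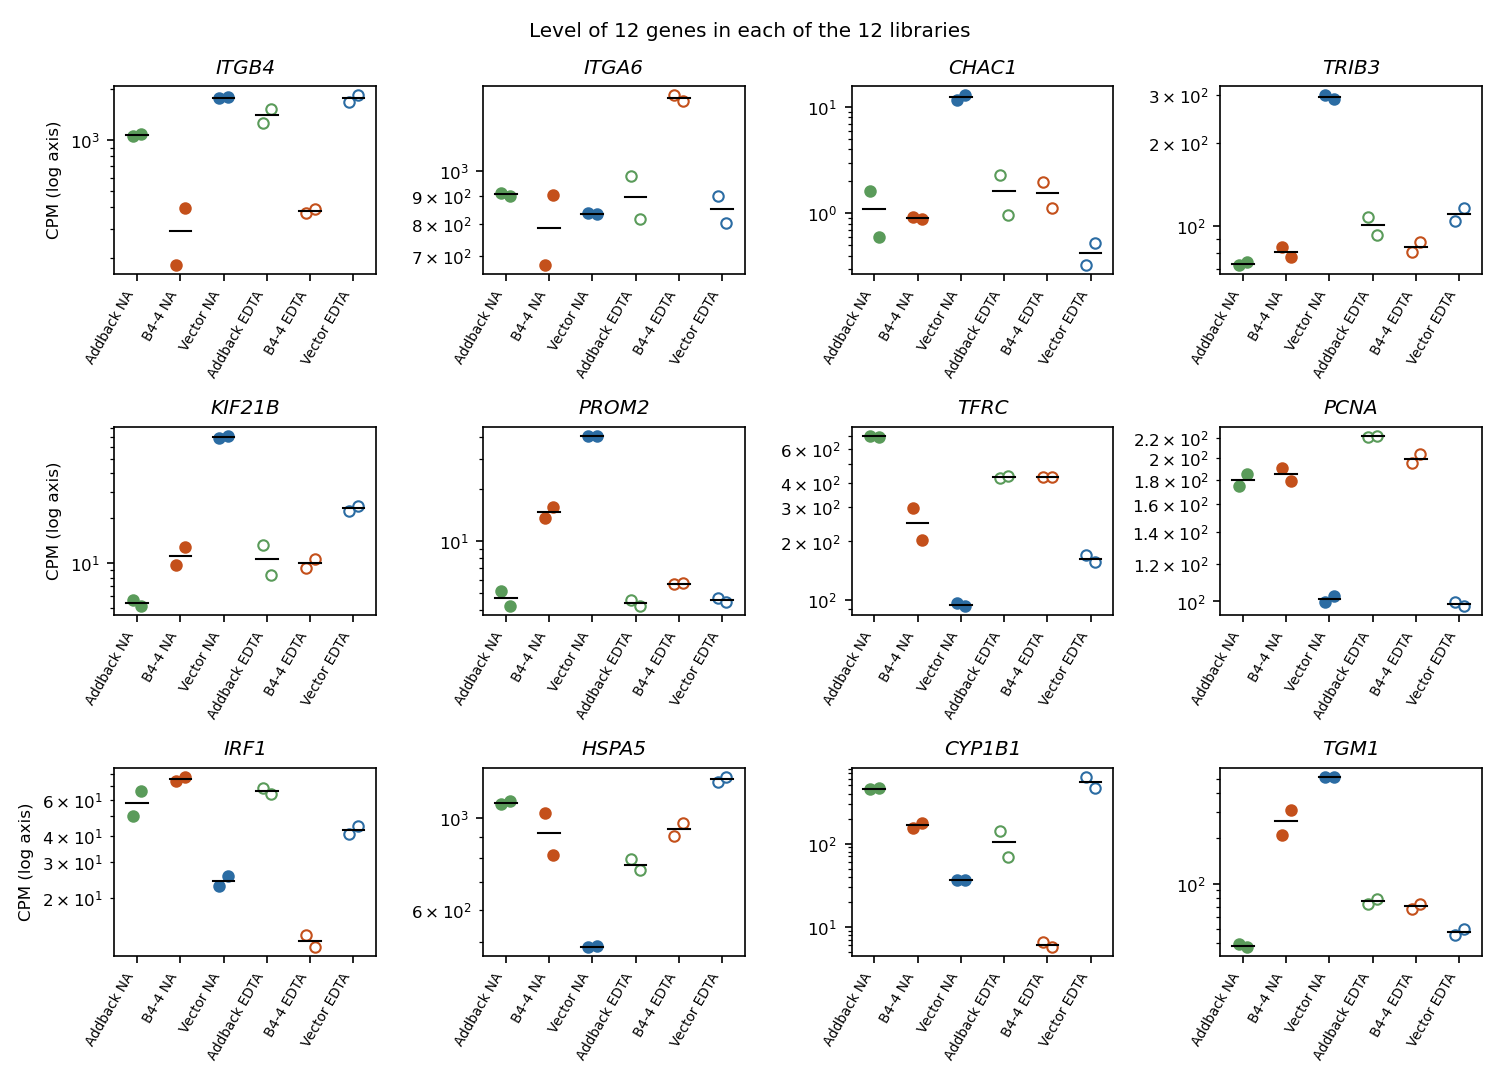
CPM on log axes of 12 genes in every library, 2 points per group with their mean as a bar, filled for NA and open for EDTA. CHAC1, TRIB3, KIF21B and PROM2 are highest in Vector NA, ITGB4 is low in both B4-4 groups, and CYP1B1 and IRF1 lie above Vector in NA and below Vector in EDTA.

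Chaperone genes of the endoplasmic reticulum gave mostly rises. In the unfolded protein response list, 6 of 18 genes rose and 2 fell (median 0.29). For 15 of the 18, both B4-4 libraries were above both Vector libraries, against 27.3% of all genes tested. HSPA5, the main chaperone of the endoplasmic reticulum, had 1032 and 813 CPM in B4-4 NA, against 486 and 490.2 CPM in Vector NA (0.92, SE 0.11, adjusted p = 0.00091), and its call held without any 1 library. DNAJB9, its co-chaperone, had 36.4 and 46.4 CPM in B4-4 NA, against 20.9 and 21.3 CPM in Vector NA (0.97, adjusted p = 0.00401). EDEM1, which sends misfolded glycoproteins to degradation, went the other way, with 125 and 135 CPM in B4-4 NA, against 178 and 168 CPM in Vector NA (-0.41, adjusted p = 0.0158). MANF, a secreted factor of the endoplasmic reticulum, also rose (0.86, adjusted p = 0.0145). Of the 8 calls, 1 remained without either Vector NA library (adjusted p up to 0.271), and 5 to 8 without any other library.

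Heat shock chaperones of the cytosol gave 4 rises and no fall among 17 (median 0.19). HSPA1A, an inducible HSP70, had 279 and 290.0 CPM in B4-4 NA, against 161 and 159 CPM in Vector NA (0.83, SE 0.10, adjusted p = 0.000866), a call that held without any 1 library. Its near-identical neighbour HSPA1B had 295 and 262 CPM in B4-4 NA and 162 and 161 CPM in Vector NA (0.78, adjusted p = 0.00288), and counts of this pair may be split between the copies. DNAJA1 and HSP90AA1 rose by 0.87 and 0.41 on the log2 scale (adjusted p = 0.00403 and 0.0414). Of 21 proteasome subunits all had a positive log2 fold change (median 0.26), and 3 were called, PSMA3 (0.50, adjusted p = 0.0106), PSMB2 (0.45, adjusted p = 0.0193) and PSMD12 (0.40, adjusted p = 0.0393). Without either Vector NA library 1 of the 4 chaperone calls and none of the 3 proteasome calls remained (adjusted p up to 0.231), against 3 to 4 and 2 to 3 without any other library.

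The cell cycle lists moved in opposite directions. Genes of the G1/S transition and DNA replication rose, 11 of 24 with none lower and a median of 0.47. Genes of G2/M and mitosis fell, 11 of 24 with none higher and a median of -0.39. PCNA, the sliding clamp of DNA polymerase, had 191 and 179 CPM in B4-4 NA, against 99.6 and 103 CPM in Vector NA (0.87, SE 0.09, adjusted p = 0.000253). CDC6, which loads the replicative helicase, had 66.8 and 55.2 CPM in B4-4 NA, against 39.1 and 37.1 CPM in Vector NA (0.68, adjusted p = 0.0052). UHRF1, which maintains DNA methylation after replication, and SLBP, the histone mRNA binding protein, rose by 0.55 and 0.62 (adjusted p = 0.00593 and 0.00878). FEN1, the flap nuclease of lagging-strand synthesis, was among the 15 largest rises that held without any library, with 76.8 and 67.7 CPM in B4-4 NA and 35.0 and 35.6 CPM in Vector NA (1.03, SE 0.10, adjusted p = 0.000204).

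TPX2, a spindle assembly factor, had 233 and 239 CPM in B4-4 NA, against 359 and 357 CPM in Vector NA (-0.60, SE 0.08, adjusted p = 0.00253). CENPF, a kinetochore protein, had 442 and 333 CPM in B4-4 NA, against 669 and 659.9 CPM in Vector NA (-0.78, adjusted p = 0.00372). CCNB1, the cyclin that drives mitotic entry, had 194 and 233 CPM in B4-4 NA, against 326 and 336 CPM in Vector NA (-0.63, adjusted p = 0.00383). No G2/M member had both B4-4 libraries above both Vector libraries and 19 of 24 had both below, while 18 of 24 G1/S members had both above. Over all genes tested, 27.3% had both above and 26.8% both below. PCNA and TPX2 kept their calls without any 1 library, and the other 10 calls of each list were lost without Vector NA 1 and without Vector NA 2 (adjusted p up to 0.317 and 0.305). Without any other library 9 to 11 of the G1/S calls and 8 to 11 of the G2/M calls remained. For 3 of the 24 G1/S members the B4-4 libraries stood on opposite sides of Vector (12.5%, against 24.7% of all genes tested).

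**Figure D3:**
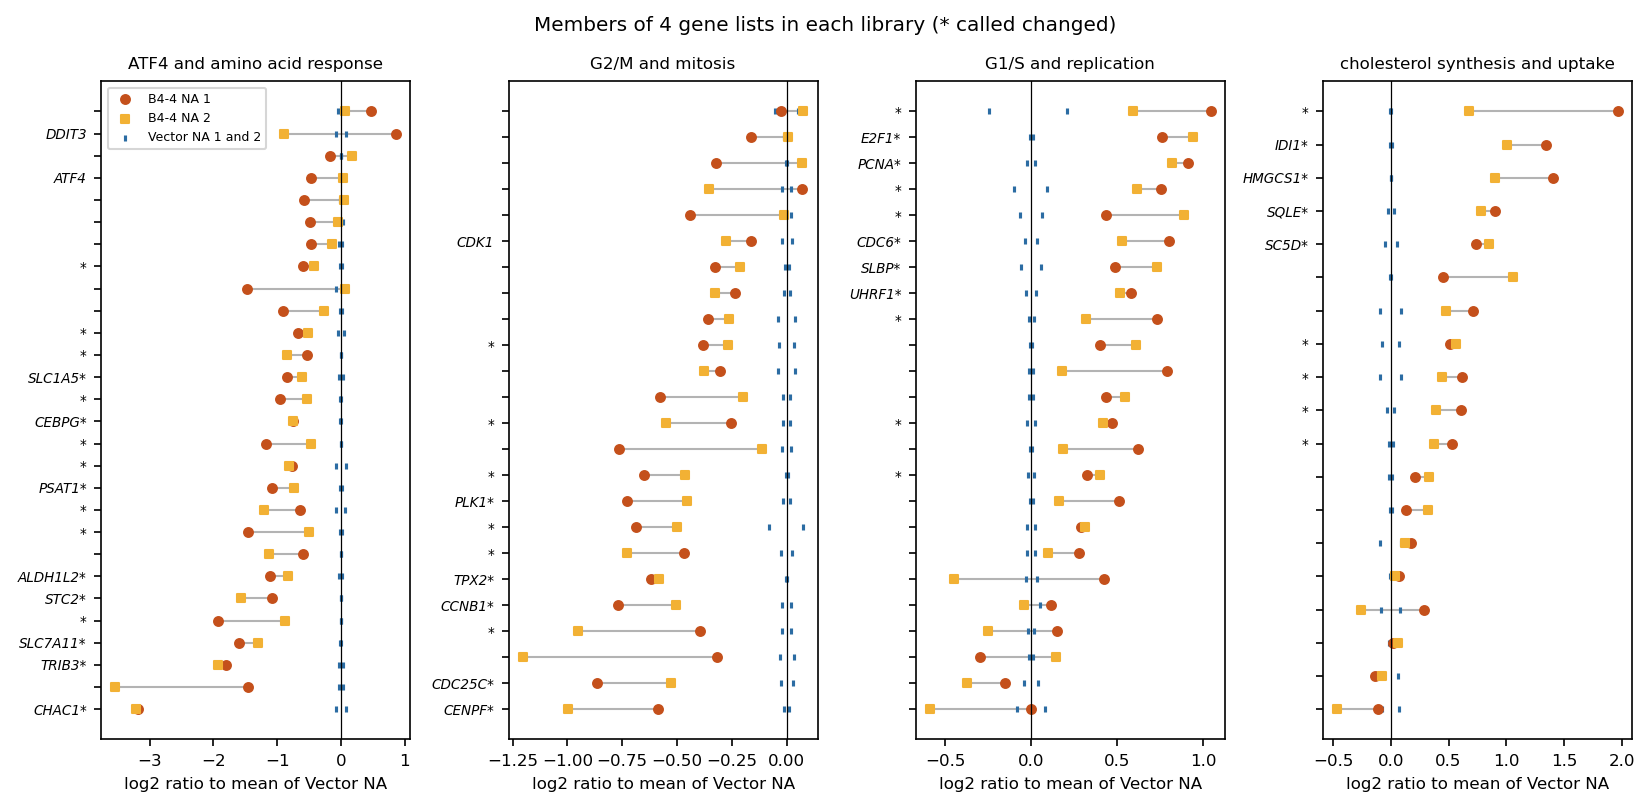
Log2 ratio to the mean of the Vector NA pair (after adding 0.5 CPM) of tested members of 4 lists, in B4-4 NA 1 (circles), B4-4 NA 2 (squares) and the Vector NA libraries (ticks), with an asterisk for called genes. Most ATF4 and G2/M members lie left of 0 in both B4-4 libraries and most G1/S and cholesterol members right of it, while DDIT3 has 1 B4-4 library on each side. Symbols are given for genes named in the text.

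Promoters of 2 fallen mitotic genes and 1 risen G1/S gene show the motifs known from periodically expressed genes. Capitals mark TTTGAA (the core of the cell cycle homology region) and CCAAT in PLK1 and CDC25C, and TTTNGCGC (an E2F site) in E2F1, on either strand. They are the 250 bases upstream of the RefSeq start on GRCh38.p14, 5′ to 3′ on the gene's strand, at chr16:23678639-23678888, plus strand, at chr5:138331805-138332054, minus strand, and at chr20:33686386-33686635, minus strand.
PLK1: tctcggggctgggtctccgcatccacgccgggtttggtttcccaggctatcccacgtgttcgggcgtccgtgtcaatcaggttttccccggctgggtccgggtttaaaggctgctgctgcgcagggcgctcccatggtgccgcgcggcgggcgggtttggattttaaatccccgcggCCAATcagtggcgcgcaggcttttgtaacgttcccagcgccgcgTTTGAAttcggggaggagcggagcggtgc
CDC25C: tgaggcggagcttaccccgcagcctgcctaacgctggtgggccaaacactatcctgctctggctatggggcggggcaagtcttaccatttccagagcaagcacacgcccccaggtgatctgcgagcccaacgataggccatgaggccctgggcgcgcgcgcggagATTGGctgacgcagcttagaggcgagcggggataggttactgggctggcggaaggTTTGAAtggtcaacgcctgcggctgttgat
E2F1: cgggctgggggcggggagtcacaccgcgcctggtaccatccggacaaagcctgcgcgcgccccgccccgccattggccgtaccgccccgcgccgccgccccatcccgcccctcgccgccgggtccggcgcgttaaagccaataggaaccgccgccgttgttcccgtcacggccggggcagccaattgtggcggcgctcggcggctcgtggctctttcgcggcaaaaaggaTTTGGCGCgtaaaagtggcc
Of 19 G2/M genes with a promoter sequence, 11 (57.9%) held TTTGAA and 17 (89.5%) held CCAAT, against 16.1% and 37.0% of 27305 genes. TTTNGCGC was present in 6 of 19 G1/S genes (31.6%), against 1.84% of all. Among called genes, 10 of 10 mitotic genes held CCAAT, 6 of 10 held TTTGAA and 3 of 8 G1/S genes held TTTNGCGC. The lists were made of known cell cycle genes, so these shares describe the lists and not the change between B4-4 and Vector. A match shows no binding. PLK1, a mitotic kinase, had 140.0 and 169 CPM in B4-4 NA and 235 and 229 CPM in Vector NA (-0.59, adjusted p = 0.00589). CDC25C, the phosphatase that activates CDK1, had 30.3 and 38.3 CPM in B4-4 NA and 54.5 and 56.6 CPM in Vector NA (-0.70, adjusted p = 0.01). E2F1, an activator of the G1/S genes, had 12.2 and 13.9 CPM in B4-4 NA and 6.95 and 7.04 CPM in Vector NA (0.90, adjusted p = 0.0137). The calls of these 3 genes, chosen because their promoters hold the motifs, were lost without either Vector NA library.

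Genes of cholesterol synthesis gave rises only. Of 21 genes for cholesterol synthesis and uptake, 9 rose and none fell (median 0.50). For 16 of them both B4-4 libraries were above both Vector libraries, against 27.3% of all genes tested. IDI1, the isopentenyl diphosphate isomerase, had 186 and 147 CPM in B4-4 NA, against 72.3 and 73.2 CPM in Vector NA (1.19, SE 0.15, adjusted p = 0.00143). SQLE, squalene epoxidase, had 379 and 350.2 CPM in B4-4 NA, against 207 and 199.6 CPM in Vector NA (0.84, SE 0.09, adjusted p = 0.000533). HMGCS1, which makes HMG-CoA, had 418 and 295 CPM in B4-4 NA, against 158 and 157 CPM in Vector NA (1.18, adjusted p = 0.00905). SC5D, a late desaturase of the pathway, rose by 0.80 (adjusted p = 0.014). IDI1 and SQLE kept their calls without any 1 library, and the other 7 were lost without either Vector NA library (adjusted p up to 0.253), while 6 to 9 calls remained without any other library. The sterol element TCACNCCAC was found in 1 of 16 list promoters (6.25%), against 1.09% of all genes, and in none of the called genes.

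Fatty acid and glycerolipid synthesis gave 2 rises among 17 genes (median 0.09). FADS1 and FADS2, the desaturases of long-chain fatty acids, rose by 0.56 and 0.58 (adjusted p = 0.0189 and 0.0292). Both B4-4 NA values of FADS2, 191 and 148 CPM, were above the 113 and 113 CPM in Vector NA. FADS3, the neighbouring family member, was among the largest rises that held, with 37.9 and 55.0 CPM in B4-4 NA and 18.8 and 19.3 CPM in Vector NA (1.28, SE 0.18, adjusted p = 0.00251). The calls of FADS1 and FADS2 were lost without either Vector NA library (adjusted p up to 0.193). The loci of FADS2 and FEN1 overlap on the same strand, so reads may have been assigned to either. Of the calls of FADS1 and FADS2, 1 of the 2 was lost without some of the other libraries.

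The list of ferroptosis and iron genes gave 3 rises and 1 fall among 17 (median 0.15). TFRC, the transferrin receptor that brings iron into the cell (chr3:196027183-196082189, minus strand), had 296 and 203 CPM in B4-4 NA, against 96.2 and 92.6 CPM in Vector NA (1.405, SE 0.14, adjusted p = 0.000261). The iron store subunits rose as well: FTH1 had 1146 and 1041 CPM in B4-4 NA, against 676 and 696 CPM in Vector NA (0.67, adjusted p = 0.00372), and FTL had 648 and 405 CPM in B4-4 NA, against 252 and 259 CPM in Vector NA (1.04, adjusted p = 0.00452). Both have processed pseudogenes that may share reads. PROM2, a membrane protein linked to ferritin export and to resistance against ferroptosis in detached cells, was lower, with 13.6 and 15.8 CPM in B4-4 NA, against 40.4 and 40.8 CPM in Vector NA (-1.46, SE 0.14, adjusted p = 0.000233). The other 8 libraries held 4.21 to 5.75 CPM of PROM2, below B4-4 NA as well as Vector NA. TFRC and PROM2 held without any 1 library, and FTH1 and FTL were lost without either Vector NA library (adjusted p up to 0.0813).

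Of 21 antioxidant genes controlled by NRF2, 5 rose and 1 fell (median 0.27). NQO1, a quinone reductase, had 326 and 342 CPM in B4-4 NA, against 187 and 189.5 CPM in Vector NA (0.83, SE 0.08, adjusted p = 0.00028). OSGIN1 rose by 1.70 (adjusted p = 0.0135), and the fallen member was SLC7A11, which is also an ATF4 target. Of the 6 calls, 2 remained without Vector NA 1 and 3 without Vector NA 2 (adjusted p up to 0.239), and 4 to 6 without any other library.

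The aryl hydrocarbon receptor is a sensor of planar ring compounds that switches on their metabolism. Of 10 genes of the receptor and its targets, 4 rose and none fell (median 0.70). CYP1B1, a monooxygenase, had 156 and 177 CPM in B4-4 NA, against 36.1 and 36.0 CPM in Vector NA (2.21, SE 0.30, adjusted p = 0.0054). CYP1A1, its relative, had 54.4 and 78.4 CPM in B4-4 NA, against 6.502 and 8.23 CPM in Vector NA (3.17, SE 0.67, adjusted p = 0.0395). TIPARP, the feedback repressor, had 232 and 159 CPM in B4-4 NA, against 85.0 and 77.6 CPM in Vector NA (1.26, adjusted p = 0.00383). The receptor gene AHR had 30.4 and 22.7 CPM in B4-4 NA and 31.6 and 34.8 CPM in Vector NA (adjusted p = 0.326). NQO1, shared with the NRF2 list, was the call that remained without either Vector NA library (adjusted p of the others up to 0.252), and 3 to 4 remained without any other library. GCGTG, the core of the receptor's element, was present in 5 of 8 list promoters (62.5%), TIPARP and CYP1A1 among them, and in 36.2% of all genes. The list was made of known targets, so this share describes the list and not the change.

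Ligands of the EGF receptor and feedback genes of the ERK pathway gave falls only. In the EGFR family and ligands 3 of 12 fell and none rose (median -0.44). EPGN, epigen, had 63.96 and 57.0 CPM in B4-4 NA, against 154 and 158 CPM in Vector NA (-1.37, SE 0.13, adjusted p = 0.00014). AREG, amphiregulin, had 159 and 63.9 CPM in B4-4 NA, against 409 and 411 CPM in Vector NA (-1.88, SE 0.36, adjusted p = 0.0229). EREG, epiregulin, had 17.9 and 7.73 CPM in B4-4 NA, against 37.7 and 37.6 CPM in Vector NA (-1.55, adjusted p = 0.024). For AREG and EREG, B4-4 NA 2 was the lower library. EGFR had 536 and 309.6 CPM in B4-4 NA and 518 and 526 CPM in Vector NA (adjusted p = 0.336).

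All 14 genes of the ERK feedback list had a negative log2 fold change (median -0.89), and 3 were called. ETV5, an ETS factor induced by ERK, had 78.7 and 83.9 CPM in B4-4 NA, against 127 and 124 CPM in Vector NA (-0.63, SE 0.09, adjusted p = 0.00251). SPRY2, an inhibitor of receptor signalling, had 9.47 and 2.49 CPM in B4-4 NA, against 22.8 and 25.3 CPM in Vector NA (-1.99, adjusted p = 0.0247). DUSP4, a phosphatase of ERK, had 91.2 and 38.6 CPM in B4-4 NA, against 164 and 160.3 CPM in Vector NA (-1.32, adjusted p = 0.0395). In 11 of the 14 genes both B4-4 libraries were below both Vector libraries, against 26.8% of all genes tested. In the other 3, B4-4 NA 1 lay above both Vector libraries and B4-4 NA 2 below both. EPGN held without any library, the calls of AREG and EREG were lost without either Vector NA library (adjusted p up to 0.155), and of the 3 ERK feedback calls none remained without Vector NA 1 and 1 without Vector NA 2 (adjusted p up to 0.220). Without any other library 1 to 3 calls remained in each list.

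Genes of squamous differentiation gave few calls by number, and some of these were firm. Of 18 genes of the cornified envelope, 2 fell (11.1%, against 3.78% of all genes tested) and none rose (median -0.42). TGM1, the transglutaminase that cross-links the envelope, had 209.9 and 311 CPM in B4-4 NA, against 518 and 513 CPM in Vector NA (-0.99, SE 0.15, adjusted p = 0.00335), and its level in the other 8 libraries was 37.4 to 79.2 CPM. SPRR1B, an envelope precursor, had 29.3 and 57.1 CPM in B4-4 NA, against 93.6 and 94.97 CPM in Vector NA (-1.13, adjusted p = 0.0243). KRT16, a stress keratin, was the called member of 11 stress and simple keratins, with 135 and 125 CPM in B4-4 NA and 277 and 283 CPM in Vector NA (-1.11, SE 0.13, adjusted p = 0.00107). ABCA12, the lipid transporter of the skin barrier, had 120.0 and 87.0 CPM in B4-4 NA, against 245 and 237 CPM in Vector NA (-1.22, SE 0.16, adjusted p = 0.00193). TGM1, KRT16 and ABCA12 held without any 1 library.

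Of 6 kallikrein-related proteases, KLK5, which starts the desquamation cascade, was called lower, with 4.08 and 7.15 CPM in B4-4 NA and 16.6 and 17.2 CPM in Vector NA (-1.60, adjusted p = 0.0427). Of 8 desmosome genes, DSC3 fell, with 334 and 278 CPM in B4-4 NA and 501 and 514 CPM in Vector NA (-0.73, adjusted p = 0.00369). None of 13 cadherins, catenins and nectins, 14 tight junction genes and 13 S100 and secreted defence genes was called, with medians of 0.00, -0.17 and -0.04. NECTIN4, a nectin that binds neighbouring cells, had 19.9 and 17.7 CPM in B4-4 NA and 16.5 and 14.5 CPM in Vector NA (adjusted p = 0.654). The calls of SPRR1B, KLK5 and DSC3 were lost without either Vector NA library (adjusted p up to 0.205), and that of KLK5 also without any other library except B4-4 NA 2 and the Addback EDTA pair.

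Mesenchymal genes and integrins outside the laminin receptors gave calls in both directions. Of 17 EMT and mesenchymal genes, 4 rose and 1 fell (median 0.54). SPARC, a matricellular protein, had 70.9 and 99.9 CPM in B4-4 NA, against 39.4 and 40.8 CPM in Vector NA (1.09, adjusted p = 0.0112). CDH2, N-cadherin, had 21.9 and 15.2 CPM in B4-4 NA, against 8.24 and 6.94 CPM in Vector NA (1.29, adjusted p = 0.0348). MMP2 rose by 1.38 (adjusted p = 0.0296), and the fallen gene was FOXC2 (-0.92, adjusted p = 0.0423). None of the 5 calls remained without either Vector NA library (adjusted p up to 0.239), and 2 to 5 without any other library.

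Among 17 other integrin chains and matrix receptors, 3 rose and 3 fell. ITGA4, the α4 chain, had 2.41 and 5.75 CPM in B4-4 NA, against 0.28 and 0.36 CPM in Vector NA, on 42 and 90 counts in B4-4 NA and 5 and 7 in Vector NA (3.63, SE 0.51, adjusted p = 0.00251), and its call held without any 1 library. ITGA10, a collagen-binding chain, had 18.4 and 13.3 CPM in B4-4 NA, against 36.8 and 36.1 CPM in Vector NA (-1.20, adjusted p = 0.00334). CD44, the hyaluronan receptor, had 673 and 764 CPM in B4-4 NA, against 940.2 and 938 CPM in Vector NA (-0.39, adjusted p = 0.023). ITGB2, the leukocyte β2 chain, had 3.79 and 4.47 CPM in B4-4 NA and 1.35 and 1.34 CPM in Vector NA (1.62, adjusted p = 0.0106). In the actin and SRF list 2 of 20 rose, and TPM2, a tropomyosin, held without any library, with 222 and 251 CPM in B4-4 NA and 139 and 138 CPM in Vector NA (0.77, SE 0.10, adjusted p = 0.00131). MYL9, a myosin light chain, rose by 1.84 (adjusted p = 0.0432). The focal adhesion list had TNS3 higher (0.76, adjusted p = 0.00785) and TNS4 lower (-0.48, adjusted p = 0.00593) among 18. None of 18 YAP and TAZ targets was called. Of the integrin calls 1 remained without Vector NA 1 and 2 without Vector NA 2, and those of MYL9, TNS3 and TNS4 were lost without either (adjusted p up to 0.291). Without any other library 4 to 6 integrin calls remained, and that of MYL9 was lost without most of the others.

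In several lists the 2 B4-4 libraries stood on opposite sides of Vector for many genes. Over all genes tested, 24.7% had a B4-4 library above both Vector libraries and the other below both. For immediate early transcription factors the share was 13 of 20, all with B4-4 NA 1 above and B4-4 NA 2 below. FOS, a subunit of AP-1, had 431 and 7.41 CPM in B4-4 NA and 166 and 159.9 CPM in Vector NA. EGR1, another growth factor response gene, had 875 and 32.6 CPM in B4-4 NA and 279 and 292 CPM in Vector NA. For glycolysis and hypoxia genes the share was 20 of 25, of which 19 had B4-4 NA 1 above. CA9, a carbonic anhydrase of hypoxic cells, had 54.7 and 1.34 CPM in B4-4 NA and 27.7 and 28.4 CPM in Vector NA. NDRG1, a hypoxia and stress gene, had 1898 and 361 CPM in B4-4 NA and 731 and 754 CPM in Vector NA. Cytokines and chemokines split in 11 of 23, and CXCL8, the neutrophil attractant, had 164 and 8.69 CPM in B4-4 NA and 47.4 and 42.2 CPM in Vector NA. These 5 genes were chosen after their values were seen.

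The mean of the B4-4 pair therefore describes neither library for these genes. A fit that leaves out 1 B4-4 NA library judges the other by the spread of the remaining groups, so its calls in these lists are not given. Of the 11 split cytokine genes, 10 had B4-4 NA 1 above and B4-4 NA 2 below. CCL5, the called cytokine, had 18 and 12 counts in B4-4 NA, against 1 and 3 counts in Vector NA (adjusted p = 0.0218), close to the floor of 3 counts, and was lost without either Vector NA library. By contrast, the B4-4 libraries split around Vector in 4 of 28 ATF4 genes, 2 of 24 G2/M genes and 3 of 21 cholesterol genes. Both lay below both Vector libraries for 22 ATF4 and 19 G2/M genes, and above both for 16 cholesterol genes.

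**Figure D4:**
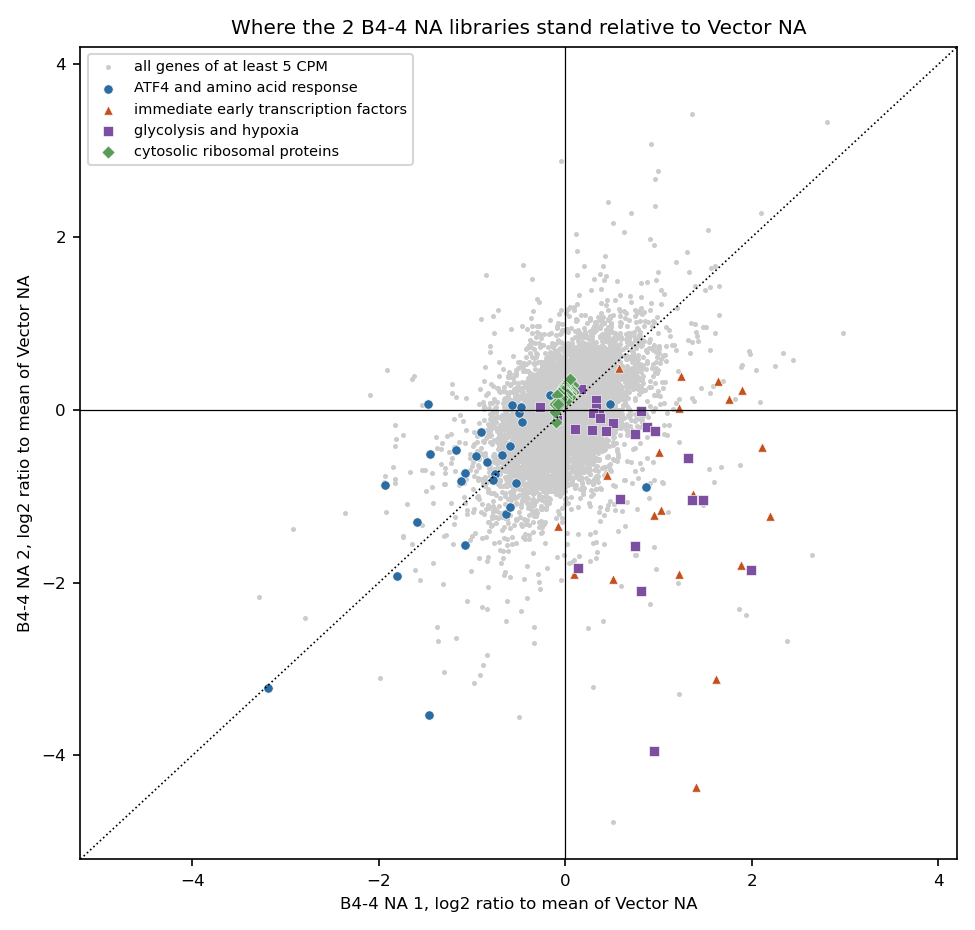
Log2 ratio to the mean of the Vector NA pair (after adding 0.5 CPM) in B4-4 NA 1 (horizontal) and B4-4 NA 2 (vertical) for 10629 genes of at least 5 CPM on average in grey, and for all tested members of 4 lists in colour. ATF4 genes lie mostly in the lower left, where both libraries are below Vector, and immediate early and glycolysis genes mostly in the lower right, where B4-4 NA 1 is above and B4-4 NA 2 below.

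The remaining lists gave at most 3 calls each, where 7.16% of all genes tested were called. None of 30 cytosolic ribosomal protein genes (median 0.10) and none of 8 pyruvate dehydrogenase kinases and phosphatases (median 0.11) was called. Of 20 p53 targets 2 rose, SFN (0.58, adjusted p = 0.00723) and BTG2 (0.62, adjusted p = 0.0184), and GDF15, a stress cytokine that ATF4 also controls, fell to 17.6 and 10.5 CPM in B4-4 NA, against 44.8 and 43.7 CPM in Vector NA (-1.65, adjusted p = 0.0052). BID, a pro-apoptotic BH3 protein, was the called member of 14 BCL2 family genes (0.89, adjusted p = 0.0261). ID1, a BMP target, was the called member of 16 activin, BMP and TGF-beta genes, with 29.2 and 15.7 CPM in B4-4 NA and 53.2 and 51.6 CPM in Vector NA (-1.22, adjusted p = 0.0243). Of 13 Notch genes, HES4 and JAG2 rose (0.92 and 0.54, adjusted p = 0.0101 and 0.0356). The calls in these lists were lost without either Vector NA library (adjusted p up to 0.248), and those of BID, ID1 and 1 Notch gene also without some of the others. Of 22 interferon-induced genes 2 rose, IFIT3 (0.98, adjusted p = 0.0175) and IRF1, and the call of IFIT3 was lost without either Vector NA library (adjusted p up to 0.166).

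Cell type markers were summed in each library. The summed level of 9 basal mammary markers was 11497 and 12737 CPM in B4-4 NA, against 16578 and 16668 CPM in Vector NA, and 3 of the 9 fell, ITGB4, KRT14 and KRT5. ITGB4 is the gene that distinguishes the derivatives, so its fall adds nothing about basal markers. The sums include ITGB4, with 182.1 and 395.5 CPM in B4-4 NA and 1775 and 1780 CPM in Vector NA, so part of their fall is that gene. Both B4-4 libraries were below both Vector libraries for 4 of the 9, ITGB4 among them, and above both for none. The other 5 were split, and KRT17, CDH3, ITGA6 and LAMB3 were above Vector in B4-4 NA 2. In bulk RNA, fewer cells of a type and less RNA per cell cannot be told apart. The 11 luminal markers summed to 2089 and 2214 CPM in B4-4 NA, against 1707 and 1712 CPM in Vector NA. None of the 8 tested was called, and KIT was at 0 in all 4 libraries. Both B4-4 libraries were above both Vector libraries for 4 of the 8, below both for 2 (GATA3 and ESR1), and 2 split. CD24 had 673 and 1005 CPM in B4-4 NA, against 498 and 481 CPM in Vector NA. Fibroblast markers summed to 23.8 and 62.7 CPM in B4-4 NA, against 27.4 and 25.3 CPM in Vector NA, with no call among 6 tested of 9. COL1A1 and FAP were the largest of these in each library. The 9 immune markers summed to 30.9 and 23.7 CPM in B4-4 NA, against 23.0 and 25.7 CPM in Vector NA, and MS4A1, CD3E and LYZ were at 0 in all 4 libraries. The 7 endothelial markers summed to 25.8 and 9.64 CPM in B4-4 NA, against 24.9 and 25.7 CPM in Vector NA, and CDH5 and EMCN were at 0 in all 4. PECAM1 alone had 24.9 and 8.81 CPM in B4-4 NA and 24.2 and 24.8 CPM in Vector NA. None of the 3 immune and 1 endothelial markers tested was called. The part of these shifts in the results above was not tested.

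Beyond the lists, the largest changes that held without any 1 library included signalling and cytoskeletal genes. RASA3, a GTPase-activating protein for Ras and Rap, had 9.24 and 13.4 CPM in B4-4 NA, against 3.48 and 3.39 CPM in Vector NA (1.72, SE 0.22, adjusted p = 0.0017). IRF1, an interferon-response transcription factor, had 74.3 and 77.9 CPM in B4-4 NA, against 22.8 and 25.5 CPM in Vector NA (1.66, SE 0.14, adjusted p = 9.98e-05). TSC22D1, a leucine zipper protein, had 365 and 388 CPM in B4-4 NA, against 122 and 126 CPM in Vector NA (1.61, SE 0.14, adjusted p = 0.000134). For each of these 3 genes both B4-4 libraries were above both Vector libraries, and for RASA3 they lay farther apart than for IRF1 and TSC22D1. SYNPO, an actin-bundling protein, had 27.0 and 32.6 CPM in B4-4 NA, against 10.2 and 10.7 CPM in Vector NA (1.51, adjusted p = 0.000489). NCOA5, a nuclear receptor coactivator, had 43.9 and 45.2 CPM in B4-4 NA, against 16.6 and 16.2 CPM in Vector NA (1.44, adjusted p = 9.3e-05). SRSF1, a splicing factor, had 213 and 161 CPM in B4-4 NA, against 79.8 and 81.4 CPM in Vector NA (1.21, adjusted p = 0.00143). MARCKS, a membrane-bound actin regulator, rose by 1.21 on the log2 scale. MARCKSL1, the MARCKS paralogue, SQSTM1, the autophagy receptor p62, and WTAP, a subunit of the m6A methyltransferase, rose by 1.02, 0.98 and 0.95. ANXA8L1 rose by 1.03, but its near-identical copy ANXA8 makes that count uncertain.

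Among the falls, KIF21B, a kinesin motor (chr1:200969390-201023700, minus strand), had 9.70 and 12.8 CPM in B4-4 NA, against 68.4 and 71.5 CPM in Vector NA (-2.64, SE 0.20, adjusted p = 4.87e-05), and 5.15 to 24.3 CPM in the other 8 libraries. TUBE1, ε-tubulin, had 7.004 and 5.88 CPM in B4-4 NA, against 23.7 and 21.4 CPM in Vector NA (-1.80, SE 0.16, adjusted p = 0.000111). NEURL1B, a ubiquitin ligase of the Notch ligands, had 31.0 and 33.2 CPM in B4-4 NA, against 96.5 and 99.6 CPM in Vector NA (-1.61, SE 0.11, adjusted p = 3.66e-05). All 3 were high in Vector NA relative to both B4-4 libraries. ARHGEF2, a microtubule-bound activator of RhoA, had 125 and 98.2 CPM in B4-4 NA, against 286 and 292 CPM in Vector NA (-1.37, SE 0.11, adjusted p = 9.3e-05). CNTRL, a centrosomal protein, and APOLD1, an apolipoprotein L domain protein, fell by 1.27 and 1.26 on the log2 scale.

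Whether the same contrast gave the same result under the EDTA label was tested as a difference of the 2 effects, B4-4 over Vector in NA minus B4-4 over Vector in EDTA. In EDTA 6831 genes (43.4%) were called, 3611 higher (22.9%) and 3220 lower (20.4%), and the libraries of each EDTA group lay closer together than the B4-4 NA pair. The difference was called for 4249 genes (27.0%), 1981 higher (12.6%) and 2268 lower (14.4%) in NA than in EDTA. Of the 1128 genes called in NA, 596 had a called difference. Of the 719 genes called under both labels, 430 had the same sign and 289 opposite signs.

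Of the 10 tested genes of the aryl hydrocarbon receptor list, 6 had a called difference, all higher in NA than in EDTA. Of the 4 called under both labels, CYP1B1, CYP1A1 and TIPARP had opposite signs, and NQO1 was higher than Vector in both. CYP1B1 had 6.52 and 5.64 CPM in B4-4 EDTA, against 641 and 469.5 CPM in Vector EDTA, so that B4-4 was above Vector in NA and far below it in EDTA (difference 8.72, SE 0.47, adjusted p = 1.38e-05). CYP1A1 had 1.09 and 1.01 CPM in B4-4 EDTA, against 125 and 135 CPM in Vector EDTA (difference 10.11, SE 1.09, adjusted p = 0.00112). IRF1 had 13.2 and 11.4 CPM in B4-4 EDTA, against 41.0 and 44.8 CPM in Vector EDTA (difference 3.46, adjusted p = 2.29e-06). TSC22D1, WTAP and SQSTM1 likewise were higher than Vector in NA and lower in EDTA, with differences of 3.60, 2.05 and 2.37. PDK4, a pyruvate dehydrogenase kinase, had 25.3 and 23.8 CPM in B4-4 EDTA, against 358 and 300.3 CPM in Vector EDTA, but its NA values of 53.8 and 208 CPM in B4-4 and 40.5 and 37.4 CPM in Vector were not called different (difference 5.49, SE 1.14, adjusted p = 0.0155).

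In the other direction, AREG had 479 and 492 CPM in B4-4 EDTA, against 80.3 and 78.97 CPM in Vector EDTA, so the fall in NA was a rise in EDTA (difference -4.49, SE 0.51, adjusted p = 0.000804). FST, the activin antagonist follistatin, had 107 and 112 CPM in B4-4 EDTA, against 0.602 and 0.62 CPM in Vector EDTA (difference -6.94, SE 1.35, adjusted p = 0.0109). CSF3, a granulocyte growth factor, had 40.2 and 45.7 CPM in B4-4 EDTA, against 1.07 and 0.798 CPM in Vector EDTA (difference -6.48, adjusted p = 0.00282). KLK7, a desquamation protease, had 11.5 and 10.1 CPM in B4-4 EDTA, against 0.278 and 0.399 CPM in Vector EDTA (difference -6.12, adjusted p = 0.00726). The Vector EDTA levels of KLK7 rest on few counts. CHAC1 had 1.97 and 1.12 CPM in B4-4 EDTA, against 0.324 and 0.532 CPM in Vector EDTA, a rise where NA showed a fall (difference -5.60, adjusted p = 0.000255). These levels are low, as 3 counts correspond to 0.140 and 0.135 CPM in Vector EDTA. Over the ATF4 list the difference was called for 11 of 28 genes, 4 higher and 7 lower in NA (median -0.18). Of its genes called under both labels, 9 had the same sign and 3 opposite signs.

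For other genes the difference between the labels was not called. ITGB4 had 372 and 390.0 CPM in B4-4 EDTA, against 1678 and 1850.3 CPM in Vector EDTA (difference -0.41, SE 0.40, adjusted p = 0.49). TFRC differed by 0.01 (SE 0.19, adjusted p = 0.986), PCNA by -0.14 (SE 0.12, adjusted p = 0.405) and FEN1 by -0.23 (SE 0.14, adjusted p = 0.231). A p-value over the threshold does not show that these effects were equal. PCNA was not typical of the G1/S list, where the difference was called for 14 of 24 genes (58.3%, against 27.0% of all). All 14 were lower in NA than in EDTA, with a list median of -0.54. Of the G1/S genes called under both labels, 11 had the same sign and none opposite signs. In the G2/M list the difference was called for 19 of 24 genes (79.2%, against 27.0% of all), 18 lower and 1 higher in NA than in EDTA, with a median of -0.89, against 0.01 over all genes. TPX2 had 311 and 326 CPM in B4-4 EDTA, against 213 and 213 CPM in Vector EDTA (difference -1.18, adjusted p = 5.3e-05). The largest share of any list was that of the cytosolic ribosomal proteins, of which none was called in NA. Their difference was called for 29 of 30 genes (96.7%), all 29 higher in NA than in EDTA (median 0.70). Without a Vector NA library the number of called differences was 2364 or 2429, and without a B4-4 EDTA library 2462 or 2513.

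**Figure D5:**
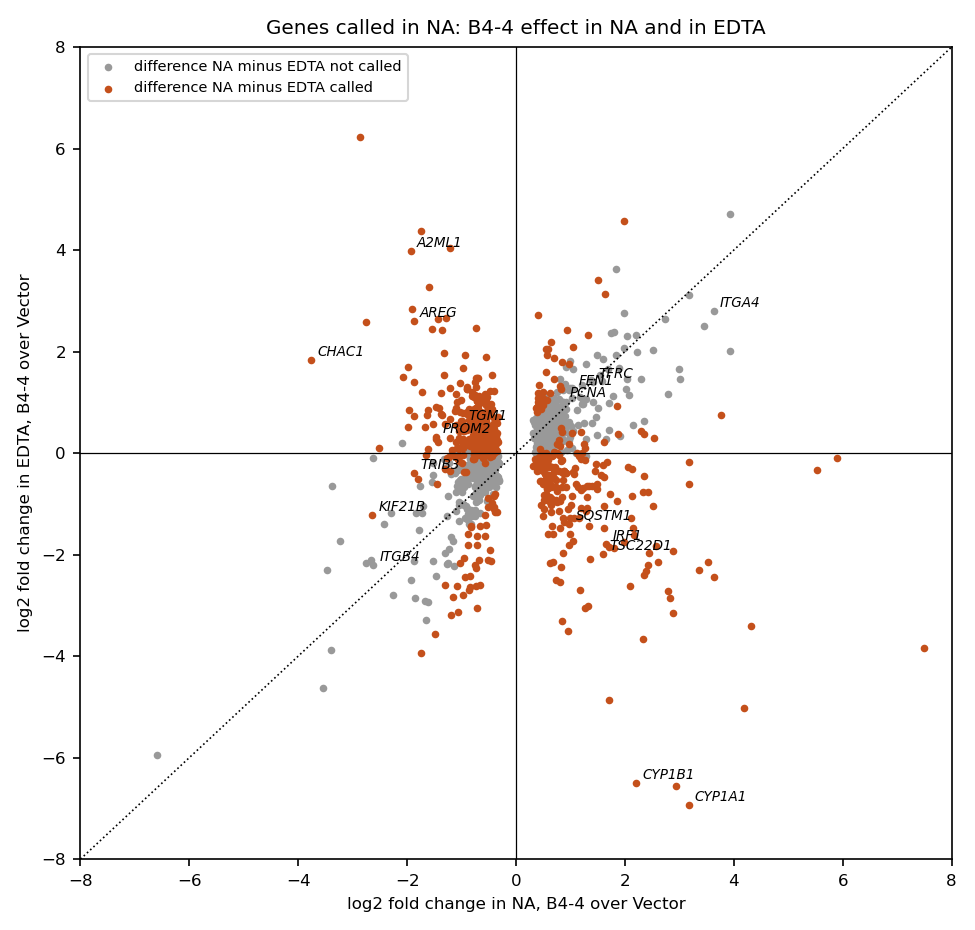
Log2 fold change of B4-4 over Vector in NA (horizontal) and in EDTA (vertical) for the 1128 genes called in NA, orange where the difference of the 2 effects was called. ITGB4, TFRC, PCNA and FEN1 lie near the dotted line of equal effects, and CYP1A1, CYP1B1, IRF1 and TSC22D1 lie in the lower right, higher than Vector in NA and lower in EDTA.

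The comparison of Addback NA, the third derivative, with B4-4 NA shares the B4-4 NA libraries with the one above, so values are given side by side. ITGB4 had 1059.7 and 1080.1 CPM in Addback NA, against 182 and 395 CPM in B4-4 NA (log2 fold change 1.89, SE 0.29, adjusted p = 0.00283), and stayed under the 1775 and 1780.1 CPM of Vector NA. In all, 3723 genes (23.6%) were called between Addback NA and B4-4 NA. CHAC1 had 1.62 and 0.596 CPM, TRIB3 71.9 and 74.1 CPM and KIF21B 5.71 and 5.15 CPM in Addback NA, all closer to B4-4 NA than to Vector NA. PROM2 had 5.15 and 4.23 CPM and TFRC 703 and 688 CPM in Addback NA, both farther from Vector NA than B4-4 NA was. SLC7A11, with 170.2 and 132 CPM in Addback NA, was near or above the level of Vector NA, and CD44, with 747 and 768 CPM, was near B4-4 NA.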

How the data were processed

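The authors deposited 1 table of whole-number read counts per gene (58233 genes, 57392 with a symbol). Per the submitters' processing notes, TopHat2 2.1.1, SAMtools 1.4.1 and featureCounts 1.5.3 were used, with GRCh38, hg19 and hg38 named and no roles given. Per the labels' protocols, 250 ng of total RNA gave stranded poly(A) libraries read as 150 bp pairs. Neither the labels nor the notes state the strand setting of the counting or the annotation release, and reads of antisense, overlapping or near-identical genes may be assigned to either. All 37 mitochondrial genes were at 0.

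From these counts, CPM with TMM scaling, log2 fold changes and p-values were computed with edgeR 4.0.16 (R 4.3.3): quasi-likelihood test, robust dispersion from all 12 libraries, 15749 genes after filterByExpr, Benjamini-Hochberg adjustment at 0.05. In B4-4 NA, 3 counts correspond to 0.175 and 0.191 CPM. The 44 gene lists (754 of 755 genes matched by symbol) and the comparison itself were chosen with earlier results of these data known. Genes named are ITGB4, ITGA6, NECTIN4, PROM2, up to 15 called genes per direction with the largest change (mean of at least 5 CPM, no overlap, call kept without any 1 of the 4 libraries), up to 4 called members per list, and the 6 largest called differences per direction. ATF4, DDIT3, AHR, EGFR and others so marked were chosen after their values were seen, and the rest complete a count. Some genes are counted in their lists but not reported here by name.

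On simulated counts for 15224 genes, the comparison in NA recovered 26% of 1.5-fold, 74% of 2-fold and 88% of 4-fold changes, and 14 of 157 calls were false. The simulation gave every library the same spread for a gene. In the data the spread was 24.2% in the B4-4 NA pair and 3.00% in the Vector NA pair, so these rates need not hold for the real comparison. Alternatives used DESeq2 1.42.0, limma 3.58.1 (voom weights), other scaling and filters, a replicate block, the run of the library names as a term, the 4 libraries alone and each library left out. List counts without a B4-4 NA library were chosen after seeing the data. Gene coordinates are from GENCODE release 29 (GRCh38). Promoters are from RefSeq (GRCh38.p14), searched over 250 bases on both strands. The authors' build for the counts is not settled by the notes.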

Additional observations from a re-analysis of the deposited data

Results flagged for a closer look

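The effect of B4-4 over Vector differed between the NA and EDTA labels, by the test of the difference itself (edgeR's quasi-likelihood test, Benjamini-Hochberg adjusted), for 4249 genes. Each value below is the log2 effect in NA minus that in EDTA. Among genes named above, the difference was positive for CYP1A1 (10.11), CYP1B1 (8.72), PDK4 (5.49), TSC22D1 (3.60), IRF1 (3.46), RASA3 (2.52), SQSTM1 (2.37), WTAP (2.05), NCOA5 (1.80), MARCKS (1.21), IDI1 (0.77) and MARCKSL1 (0.63). IQCN (5.09), CAMK2B (4.91) and TPPP (4.47) were the other largest positive differences.

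The difference was negative for ITGA6 (-0.76), whose NA effect was not called. It was negative for the ATF4 targets CHAC1 (-5.60), STC2 (-1.87), TRIB3 (-1.48) and SLC7A11 (-0.84). Over the 28 genes of the ATF4 list, 7 called differences were negative and 4 positive. Genes of epidermal differentiation and proteolysis were KLK7 (-6.12), A2ML1 (-5.91), PI3 (-5.50), KLK5 (-4.87), KRT16 (-1.65) and ABCA12 (-0.87). Secreted factors were FST (-6.94), CSF3 (-6.48) and EPGN (-2.12). The others were ARHGEF2 (-2.14), PROM2 (-1.77), NEURL1B (-1.68), KIF21B (-1.41), TUBE1 (-1.30) and CNTRL (-1.17).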

How the results depend on the processing

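The count of 1128 genes called between B4-4 NA and Vector NA (532 higher, 596 lower) was 1874 (855 higher, 1019 lower) with no filter on low counts, 618 (286 and 332) with voom weights, 6 (2 and 4) with the 4 libraries alone and 299 (161 and 138) at 2-fold or more. Leaving out 1 library gave 81 to 3319 calls, 34 to 1496 higher and 46 to 1823 lower. The 4249 called differences between NA and EDTA were 2115 at 2-fold or more and 2364 to 5515 without 1 library. ITGB4 was -2.63 with the 4 libraries alone, not called (adjusted p = 0.138), and -3.29 to -2.17 without 1 library. ITGA6 turned to 0.11 (adjusted p = 0.523) without B4-4 NA 1 and was -0.32 without B4-4 NA 2. All 1128 calls kept their sign in each alternative that tested them. The cause of these shifts was not tested, except that the 4 libraries alone leave fewer samples to estimate the spread.

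No pairing by replicate number is stated. The replicate 1 minus replicate 2 differences of B4-4 NA and Vector NA correlated at 0.0131 over 10629 genes. The Vector NA libraries hardly differed (median 0.057 on the log2 scale), so this correlation cannot decide whether the numbers pair samples. With the replicate block 1118 genes were called (528 higher, 590 lower), 4260 differences were called and ITGB4 was -2.67. Depth limits genes near 3 counts, such as CCL5.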
